A study of Mus musculus with 20 samples.

Results

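The data described here compare cells of the Lgr5-low gate from mouse intestinal crypts 4 days into a *Mettl3* knockout with WT cells of the same gate. The comparison rests on 4 of the 20 libraries of the series: 2 labelled *Mettl3*-/- at day 4 and 2 labelled wild type. Of 54838 gene rows, 11971 reached 1 FPKM (fragments counted on a gene, divided by its length and by the sequencing depth) in at least 2 of the 4 libraries and were tested. Another 42867 rows did not reach that level. The edge of this filter held 657 genes that reached 1 FPKM in exactly 2 libraries, and 794 genes outside it did so in exactly 1.

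All mice were C57BL/6. Crypts were digested with TrypLE, cells were sorted by flow cytometry on Lgr5 and total RNA was sequenced, per the labels' protocols. The knockout libraries are labelled *Mettl3*-/- with tamoxifen given for 4 days at 20 mg/ml. The mouse line named for the deletion carries *Mettl3*fl/fl with 2 tamoxifen-activated Cre alleles: Lgr5-EGFP-IRES-CreERT2, driven from *Lgr5*, which also supplies the green reporter of the gate, and Villin-CreERT2, which acts in the intestinal epithelium as a whole. The WT libraries are labelled wild type and untreated, whereas the protocol says that *Mettl3*fl/fl mice also received tamoxifen. Which mice gave the sorted WT cells, and whether those mice carried a Cre or the reporter, is not given in the labels. An effect of tamoxifen or of Cre therefore cannot be told apart from one of the deletion. For context, the text also uses 4 Lgr5-high libraries (2 WT and 2 knockout at day 4), 1 Lgr5-low knockout library at day 3 and 2 knockout libraries at day 6 whose labels name no gate. Whether the 2 libraries of a group are different mice is not stated, so p-values measure only the spread between these libraries, which may be technical.

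Mettl3 is the catalytic subunit of the complex that writes N6-methyladenosine (m6A) on messenger RNA, a mark that reader proteins use to direct splicing, translation and decay. In the intestine Lgr5 marks the stem cells at the crypt base. A gate low for it can hold their progeny, among them dividing progenitors, Paneth cells and young enterocytes and secretory cells, and in bulk RNA of such a mixture fewer cells of a type and less RNA per cell cannot be told apart.

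The gate labels matched the reporter gene. In WT cells of the low gate *Lgr5* was measured at 0.715 and 0.974 FPKM, against 10.1 and 10.4 FPKM in the high gate. All Lgr5-low libraries carry the source label of intestinal stem cells, which their *Lgr5* level does not bear out. Knockout Lgr5-low libraries held 0.792 and 0.906 FPKM of *Lgr5*, within the range of WT. *Mettl3* itself stood at 4.23 and 3.42 FPKM in WT against 3.67 and 2.75 in knockout. Its groups overlapped, with a log2 difference of -0.20 ± 0.22 (SE; limma, adjusted p = 0.77). A gene-level value does not show whether the floxed exons are missing, so it does not check the deletion.

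Epithelial markers were high in all 4 libraries: *Epcam* lay between 421 and 563 FPKM. The leukocyte marker *Ptprc* stayed at or below 0.298 FPKM, and the muscle genes *Acta2*, *Myh11* and *Des* at or near 0. Other markers of cells outside the epithelium were not all that low. The myeloid markers *Lyz2*, *Cd68* and *Itgam* reached 10.2, 3.14 and 1.91 FPKM, each in a WT library. The T cell marker *Cd8a* stood at 0.0861 FPKM in knockout library 1 and 1.1 in library 2, and the stromal *Col3a1* at 0.102 and 0.878. Depth, estimated from the smallest steps between FPKM values, was 25.4 and 15.7 (1e6 fragments) in WT and 23.2 and 15 in knockout, so replicate 1 was the deeper library on both sides. Paneth cell defensins and lysozyme took 18.2% and 21.2% of all FPKM in WT against 24.4% and 24% in knockout. Knockout library 2 stood apart from knockout library 1 in several cell type markers. Its summed FPKM was 2946 against 1375 for brush border enzymes, 1053 against 395 for MHC class II genes, 112 against 53.7 for tuft cell markers and 49.8 against 14 for immune cell markers. The part of these differences in the results below was not tested.

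At day 4, 47 genes (0.393% of those tested) were higher in knockout Lgr5-low cells and 31 (0.259%) were lower at an adjusted p under 0.05 (limma with Benjamini-Hochberg adjustment, two-sided, on log2(FPKM + 1)). The genes that rose were led by interferon-induced genes and immunity-related GTPases, by a p53 target and by enzymes of redox defence. Those that fell included enzymes of metabolism, immediate early genes, the clock repressor *Nr1d1* and 4 histone genes. Together these are 78 genes (0.652%), and in each of them the knockout and WT values did not overlap. Over all genes tested, both knockout libraries lay above both WT libraries in 28.7% and below in 24.8%, and the median log2 difference was 0.02. Because 1 is added to each FPKM, this scale makes differences of weakly expressed genes look smaller than they are. Of the called genes, 9 passed the expression filter only through the knockout libraries (*Cbr3*, *Tgtp2*, *Phlda3*, *Tgtp1*, *Etv4*, *Ccnb1ip1*, *Ddit4l*, *1700007K13Rik* and *Zfp385a*) and 9 only through WT, so that these had to differ to be tested.

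The calls rest on 2 libraries a side and on a spread shared with 6 other libraries. When either WT library or knockout library 2 was left out, 3 genes were called, the same 3 each time: *Cbr3*, *Phlda3* and *Acta1*, all higher. Without knockout library 1, these 3 were joined by *Fosb*, *Phgr1* and *Ugt1a9*, all lower. Fitting only the 4 compared libraries left *Cbr3* alone, and scaling every library to an equal FPKM sum left 6 genes: *Cbr3*, *Phlda3*, *Acta1*, *Akr1b8*, *Edn2* and *Pbld1*.

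**Figure D1:**
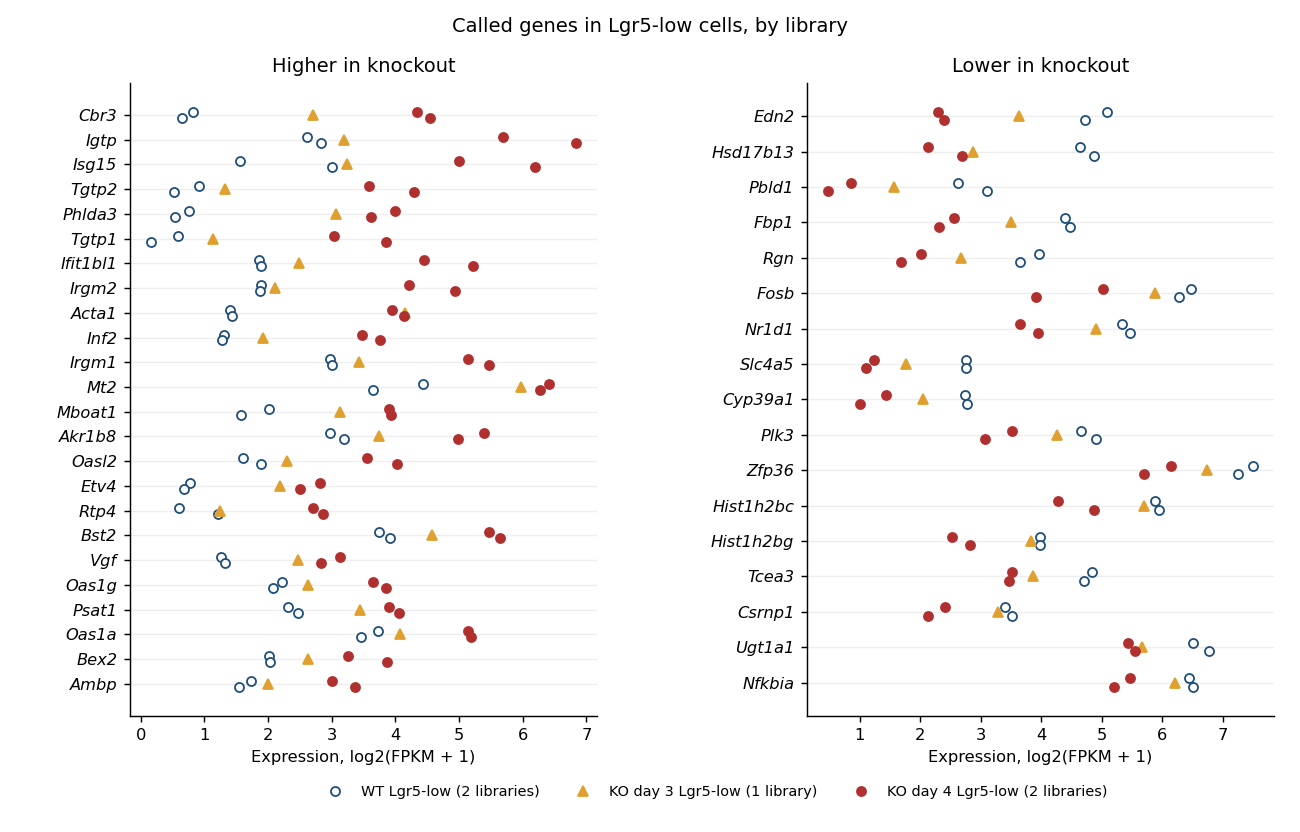
Expression as log2(FPKM + 1) of 41 genes that the naming rule picked from the called genes, 24 higher and 17 lower, with 1 symbol per library: 2 WT and 2 day 4 knockout libraries of the Lgr5-low gate and the single day 3 library. In every row the filled circles of day 4 lie on one side of the open WT circles.

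Of the listed immunity-related GTPases, which interferon induces and which attack the vacuoles of intracellular parasites, 5 were called higher. *Igtp* (chr11:58199556-58207591, GRCm38) stood at 5.13 and 6.09 FPKM in WT against 50.6 and 113 in knockout. Both knockout libraries lay far above both WT libraries, knockout library 2 highest (log2 difference 3.54 ± 0.49, adjusted p = 0.0285). *Irgm1*, a regulator of the other GTPases, went from 6.84 and 7.02 to 34.4 and 43.5 FPKM (2.32 ± 0.30, adjusted p = 0.0263). *Irgm2* went from 2.69 and 2.65 to 17.6 and 29.7 FPKM, again without overlap (2.70 ± 0.46, adjusted p = 0.046). *Tgtp2* stood at 0.878 and 0.434 FPKM in WT against 11 and 18.6 in knockout. Its near-identical neighbour *Tgtp1* stood at 0.5 and 0.12 FPKM in WT against 7.17 and 13.4 in knockout, and reads may have been split between the 2 copies. *Igtp* and *Irgm2* overlap in the annotation, so their values are not fully separate either. In 4 of these 5 genes knockout library 2 was over 1.5 times as high as knockout library 1, and in *Irgm1* less than that.

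Of 19 GTPases and guanylate-binding proteins listed, 12 were tested, 5 were called higher and none lower. The predicted gene *Gm12250*, which is not in the list, was also called higher. It went from 2.65 and 3.05 to 21.8 and 42.8 FPKM (3.04 ± 0.47, limma adjusted p = 0.0382). Of the 12, 7 passed the filter only through knockout and so had to lie above WT. Of the other 5, 4 had both knockout libraries above both WT libraries, as had 28.7% of all genes tested. The median log2 difference was 1.60 over all 19 listed genes. *Iigp1*, named here after its values were seen, showed the largest difference of the list, from 0.405 and 0.172 FPKM to 11.3 and 37.4, and missed the threshold (4.09, adjusted p = 0.0602). The summed FPKM of the list was 27.5 and 29.8 in WT, 172 and 330 in knockout at day 4 and 41.2 in the day 3 library.

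Of the listed genes that type I interferon induces, 7 were called higher. *Isg15*, a ubiquitin-like protein that is attached to other proteins, stood at 1.94 and 7.02 FPKM in WT against 31 and 72.1 in knockout. The groups did not overlap, although the WT libraries themselves differed widely (3.32 ± 0.50, adjusted p = 0.0344). *Ifit1bl1*, of the IFIT family of RNA-binding antiviral proteins, went from 2.63 and 2.69 to 20.8 and 36.1 FPKM (2.96 ± 0.36, adjusted p = 0.0248). *Bst2*, the tetherin that holds budding virus at the cell surface, went from 12.4 and 14.1 to 43.2 and 48.8 FPKM (1.72 ± 0.23, adjusted p = 0.0281). In both genes the knockout libraries lay well clear of WT. The oligoadenylate synthetase *Oas1a*, which makes the signal that activates RNase L, went from 12.3 and 10 to 34.4 and 35.5 FPKM. Its relative *Oas1g*, from which reads may not be separable, went from 3.66 and 3.2 to 11.6 and 13.4 FPKM, and *Oasl2* from 2.05 and 2.71 to 10.8 and 15.3. *Rtp4*, an interferon-induced chaperone of receptors, went from 0.518 and 1.31 to 5.49 and 6.24 FPKM.

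Among 58 interferon-stimulated genes listed, 50 were tested and these 7 were called, all higher. Of the 50, 6 passed the filter only through knockout and so had to lie above WT. In 39 of the other 44 both knockout libraries lay above both WT libraries, and in none below. The shares over all genes tested were 28.7% and 24.8%. The median log2 difference over all 58 listed genes was 0.95. Transcription factors of the pathway, named after their values were seen, were higher in both knockout libraries without passing the test: *Stat2* went from 2.92 and 2.69 to 6.99 and 10.5 FPKM (adjusted p = 0.262) and *Irf7* from 4.09 and 3.91 to 7.03 and 12.5 (adjusted p = 0.117). Summed over the list, FPKM was 541 and 599 in WT, 994 and 1240 in knockout and 665 at day 3. None of the 18 genes of MHC class I presentation was called. *Tap1*, the peptide transporter, came nearest, at 9.76 and 6.73 FPKM in WT against 22.4 and 21.8 in knockout (adjusted p = 0.0514). None of 7 MHC class II genes was called. *H2-Aa* stood at 10 and 9.49 FPKM in WT against 19.5 and 81.7 in knockout (1.94 ± 0.77, adjusted p = 0.31), and the knockout libraries differed more from each other than the lower one did from WT.

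Interferon acts through 2 short promoter elements. Type I interferon assembles a complex of transcription factors that binds the interferon-stimulated response element (ISRE), and interferon gamma acts through the gamma-activated site (GAS). The 140 bases before the RefSeq start (GRCm38.p6) of 8 called genes are shown because they hold the 2 elements in different arrangements. All are written 5′ to 3′ on the strand of the gene, with matches to GAS (TTCNNNGAA) or ISRE (GAAA, any 2 bases, GAAA), searched on both strands, in capitals.

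The 4 GTPases *Igtp*, *Irgm2*, *Tgtp1* and *Tgtp2* hold a GAS followed by an ISRE that begins 11 bases downstream of the start of the GAS.
*Igtp*, chr11:58199416-58199555, plus strand: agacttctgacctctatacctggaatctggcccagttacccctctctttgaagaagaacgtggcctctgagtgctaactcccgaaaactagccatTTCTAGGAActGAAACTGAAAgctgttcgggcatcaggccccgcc
*Irgm2*, chr11:58214837-58214976, plus strand: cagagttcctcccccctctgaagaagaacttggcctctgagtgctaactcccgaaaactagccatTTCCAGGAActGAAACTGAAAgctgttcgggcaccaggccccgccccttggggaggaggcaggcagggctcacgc
*Tgtp1*, chr11:48992247-48992386, minus strand: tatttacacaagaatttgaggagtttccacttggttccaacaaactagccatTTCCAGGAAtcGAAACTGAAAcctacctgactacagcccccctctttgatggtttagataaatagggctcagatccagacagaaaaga
*Tgtp2*, chr11:49064213-49064352, minus strand: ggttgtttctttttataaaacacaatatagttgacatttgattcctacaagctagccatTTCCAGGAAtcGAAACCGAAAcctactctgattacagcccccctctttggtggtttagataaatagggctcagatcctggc

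*Irgm1* and *Isg15* hold overlapping ISRE matches and no GAS in these bases, *Bst2* a GAS that runs into its ISRE matches, and *Oas1a* a GAS and, apart from it, ISRE matches close to the start.
*Irgm1*, chr11:48871421-48871560, minus strand: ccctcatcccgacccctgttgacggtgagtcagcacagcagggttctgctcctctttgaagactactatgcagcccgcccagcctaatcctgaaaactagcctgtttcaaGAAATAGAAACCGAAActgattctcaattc
*Isg15*, chr4:156200819-156200958, minus strand: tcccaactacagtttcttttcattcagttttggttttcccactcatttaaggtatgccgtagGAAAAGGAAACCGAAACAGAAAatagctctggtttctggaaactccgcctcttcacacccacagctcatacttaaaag
*Bst2*, chr8:71537473-71537612, minus strand: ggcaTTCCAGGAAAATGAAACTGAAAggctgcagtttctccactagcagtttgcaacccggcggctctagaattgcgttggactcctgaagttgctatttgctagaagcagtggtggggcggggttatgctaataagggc
*Oas1a*, chr5:120907526-120907665, minus strand: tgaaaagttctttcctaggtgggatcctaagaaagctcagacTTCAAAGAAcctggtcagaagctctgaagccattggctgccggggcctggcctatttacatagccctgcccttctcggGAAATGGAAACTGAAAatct

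An ISRE match was present in 3.44% of all 32851 RefSeq windows of 300 bases (250 before to 50 after a start) and a GAS match in 8.3%. Counted by gene, over the 8554 tested genes with a window, these were 3.58% and 8.18%. Among called genes that rose, 38 had a window, and 11 of these held an ISRE. They were the 5 listed GTPases, *Isg15*, *Ifit1bl1*, *Bst2*, *Oas1a*, *Oas1g* and the predicted gene *Gm12250*. None of the 18 called genes that fell and had a window held one. *Oasl2* had no ISRE match in its window, and for *Rtp4* no window was matched. Of all listed interferon-stimulated genes that were tested and had a window, 17 of 38 held an ISRE, and of the GTPases and guanylate-binding proteins 8 of 9. The arrangement with the GAS 11 bases ahead of the ISRE occurred in 5 of all 32851 windows, those of *Igtp*, *Irgm2*, *Tgtp1*, *Tgtp2* and *Gm12185*, which all lie on chromosome 11. Their windows resemble each other and are not independent examples. A match is a description of the letters and does not show that a factor binds there.

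**Figure D2:**
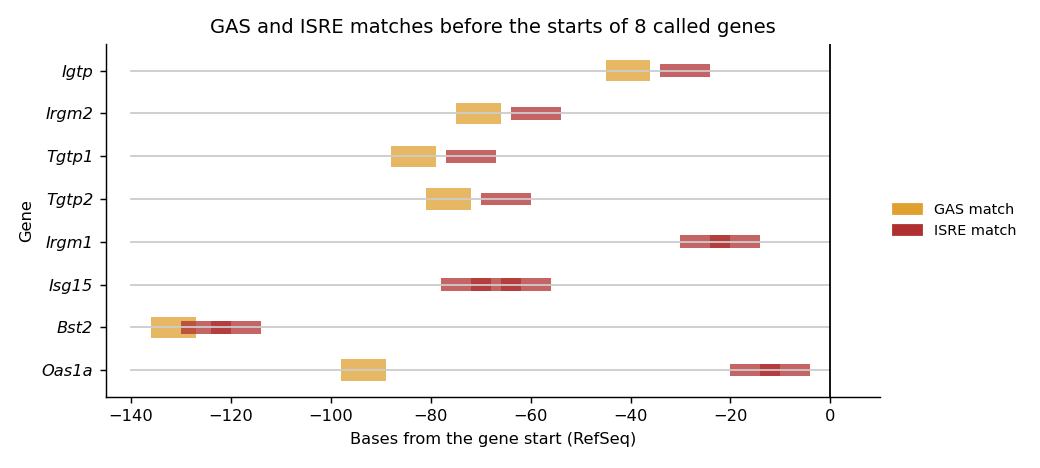
Positions of GAS matches (gold, taller boxes) and ISRE matches (red) in the 140 bases before the RefSeq start of 8 called genes, with the start at 0. In the first 4 rows the ISRE begins 11 bases after the start of the GAS, and the lower rows hold other arrangements.

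Redox defence and detoxification held 3 of the genes that rose. *Cbr3*, a carbonyl reductase (chr16:93683215-93690990), had the largest difference of all called genes. Its level was 0.772 and 0.56 FPKM in WT against 19.2 and 22.2 in knockout, with little spread on either side (3.71 ± 0.24, adjusted p = 0.00137). *Cbr3* passed the filter only through knockout, so it had to lie above WT to be tested. It was called in all 17 alternative fits, which reuse the same libraries and are not independent support. *Akr1b8*, an aldo-keto reductase, went from 6.87 and 8.1 to 41.2 and 30.5 FPKM (2.11 ± 0.27, adjusted p = 0.025). *Mt2*, a metallothionein that binds zinc and copper, went from 20.5 and 11.6 to 84 and 76.5 FPKM (2.30 ± 0.31, adjusted p = 0.0281). It lies opposite the predicted gene *Gm45774*, and without strand information their reads cannot be told apart.

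None of the other listed genes attributed to NRF2, the transcription factor that responds to oxidants and electrophiles, passed the test. Of 31 listed, 30 were tested, 3 were called higher and none lower, and the median over all 31 was 0.56. Leaving aside 3 genes that passed the filter only through knockout, 17 of 27 lay higher and 4 lower without overlap. Over all genes tested the shares were 28.7% and 24.8%. *Gstm1*, a glutathione transferase, went from 25.5 and 30 to 57.4 and 71.6 FPKM (adjusted p = 0.109). The widely used NRF2 marker *Nqo1* stood at 25.5 and 28.8 FPKM in WT against 23.9 and 25.5 in knockout, with a log2 difference of -0.13 (adjusted p = 0.883). *Nqo1* was named after its values were seen. The antioxidant response element TGACNNNGC was found in 12.4% of all windows and, counted by gene, in 17.1% of the 8554 tested genes with a window. It was found in 12 of the 26 tested genes of the list that had one, and in 1 of the 3 called, *Mt2*.

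*Phlda3*, a p53 target that restrains Akt signalling (chr1:135766119-135769136), stood at 0.685 and 0.447 FPKM in WT against 15 and 11.2 in knockout. Both knockout libraries lay far above both WT libraries (3.16 ± 0.23, adjusted p = 0.00137). *Phlda3* too passed the filter only through knockout and had to lie above WT to be tested. *Ephx1*, the microsomal epoxide hydrolase, which is also listed as a p53 target, went from 8.61 and 9.13 to 27.8 and 23.6 FPKM (1.43 ± 0.19, adjusted p = 0.0281). The other 29 tested genes of the p53 list were not called. *Cdkn1a*, the cell cycle inhibitor p21, stood at 25.9 and 28.3 FPKM in WT against 54.5 and 79.9 in knockout, without overlap but short of the threshold (1.25 ± 0.28, adjusted p = 0.101). Leaving aside 2 genes that passed the filter only through knockout, 20 of 29 lay higher and 5 lower without overlap. Over all genes tested the shares were 28.7% and 24.8%. The median over the 32 listed was 0.59.

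The response to amino acid shortage held 2 of the called genes. *Psat1*, an enzyme of serine synthesis, went from 3.98 and 4.53 to 13.9 and 15.6 FPKM (1.58 ± 0.20, adjusted p = 0.0248), and *Slc7a5*, a carrier of large neutral amino acids, from 6.88 and 5 to 21.4 and 14.4 (1.43 ± 0.25, adjusted p = 0.048). The other 25 tested genes of the integrated stress response list were not called and went both ways. Over all 27, with the 2 called genes included, 12 lay higher and 6 lower without overlap. *Atf4* itself, the factor at the centre of this response, overlapped between groups, at 105 and 73.2 FPKM in WT against 90.5 and 114 in knockout. Of the 19 genes of the unfolded protein response none was called. Their median was 0.45, with 15 higher without overlap. Over all genes tested 28.7% lay higher and 24.8% lower, and the lower genes of the integrated stress response list did not exceed that share.

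**Figure D3:**
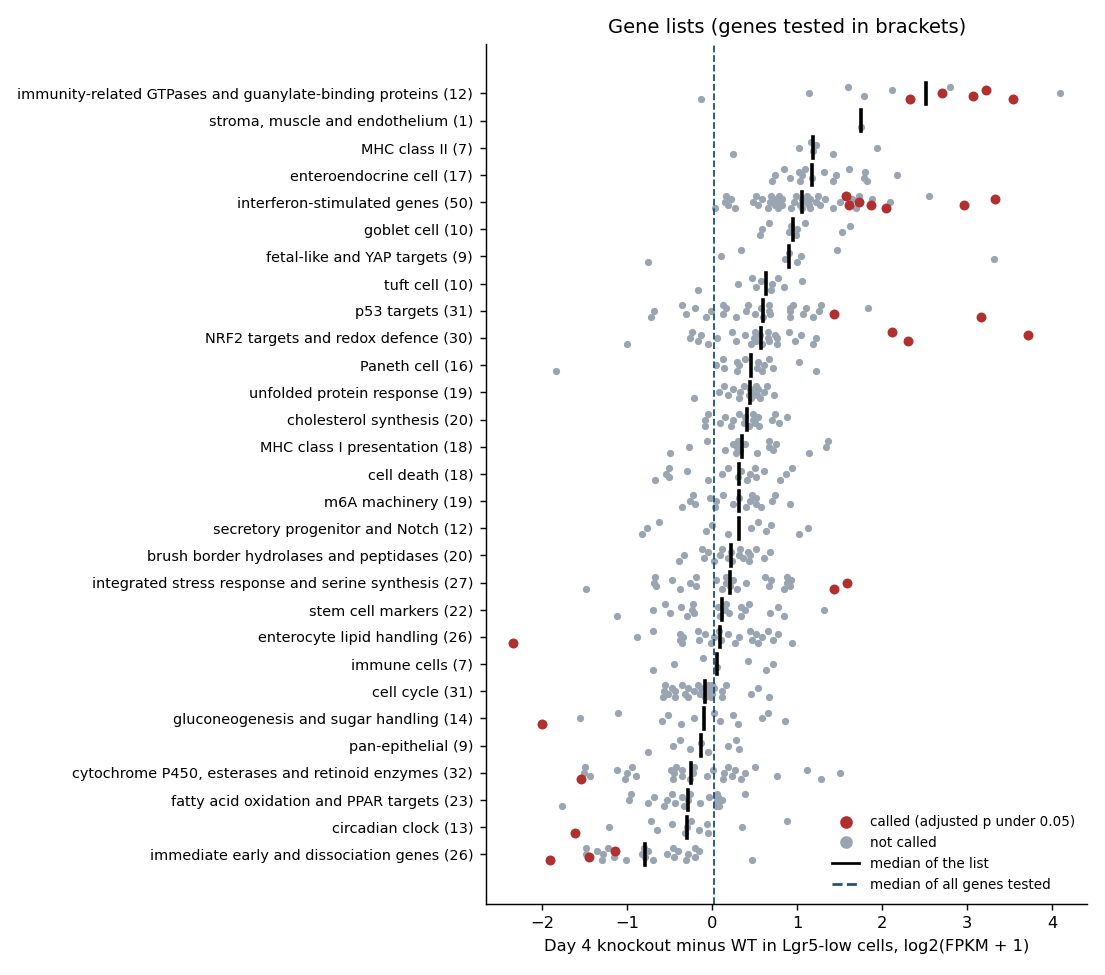
Log2 difference, day 4 knockout minus WT in Lgr5-low cells, of each tested gene in 29 gene lists (points, called genes larger and in red), with the list's median as a black bar and the median of all genes tested, 0.02, as a dashed line. GTPases and interferon-stimulated genes lie to the right with called members, enteroendocrine and goblet markers to the right without any, and immediate early genes to the left.

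Several genes outside these lists rose as well. *Acta1*, the actin of skeletal muscle, stood at 1.64 and 1.71 FPKM in WT against 14.4 and 16.6 in knockout, and the groups were far apart (2.62 ± 0.19, adjusted p = 0.00137). The smooth muscle genes *Acta2*, *Myh11* and *Des* did not exceed 0.06 FPKM in any of the 4 libraries. *Inf2*, a formin that assembles actin, went from 1.47 and 1.42 to 10.1 and 12.5 FPKM. *Mboat1*, a lysophospholipid acyltransferase, went from 3.06 and 1.99 to 13.9 and 14.3 FPKM. None of the 20 genes of cholesterol synthesis was called, although 15 lay higher without overlap and none lower (median 0.41). The shares over all genes tested were 28.7% higher and 24.8% lower. *Etv4*, an ETS transcription factor, *Vgf*, a precursor of secreted peptides, *Bex2* and *Ambp*, the precursor of bikunin, differed by 1.93, 1.68, 1.54 and 1.54 on the log2 scale. *Reg4*, a lectin of secretory cells and the most abundant gene that rose, went from 223 and 255 to 538 and 749 FPKM (1.41 ± 0.24, adjusted p = 0.0471). It was chosen after its values were seen, as it ranked below the 25 largest rises.

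The 31 genes that fell were led by metabolic enzymes and by *Edn2*. *Edn2*, which encodes the peptide endothelin 2, stood at 32.9 and 25.3 FPKM in WT against 3.89 and 4.24 in knockout, well apart (-2.56 ± 0.32, adjusted p = 0.0248). *Hsd17b13*, a dehydrogenase of lipid droplets (chr5:103955440-103977410), went from 24 and 28.1 to 3.38 and 5.49 FPKM (-2.34 ± 0.27, adjusted p = 0.0248). *Fbp1*, an enzyme of gluconeogenesis, went from 20 and 21.2 to 4.91 and 3.94 FPKM (-2.0 ± 0.30, adjusted p = 0.0339). In all 3 genes the higher knockout library was below the lower WT library by a wide margin. *Rgn*, a gluconolactonase, went from 14.6 and 11.6 to 3.05 and 2.22 FPKM, and *Pbld1* from 5.2 and 7.61 to 0.803 and 0.398. *Cyp39a1*, an oxysterol hydroxylase of bile acid synthesis, went from 5.7 and 5.86 to 1.71 and 1.01 FPKM. *Slc4a5*, a bicarbonate transporter, went from 5.75 and 5.78 to 1.36 and 1.16 FPKM. *Ugt1a1*, which conjugates bilirubin, went from 89.9 and 108 to 42.4 and 45.9 FPKM, but it shares exons with 8 other *Ugt1a* genes and its reads may come from any of them.

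The wider metabolic lists held 1 called gene each or none, where 0.652% of all genes tested were called. *Hsd17b13* was the called gene among 26 of enterocyte lipid handling. Beside 1 gene that passed the filter only through knockout, 1 of these lay higher and 5 lower without overlap (median 0.09). Over all genes tested 28.7% lay higher and 24.8% lower, and the lipid list exceeded neither share. *Fbp1* was the called gene among 14 of gluconeogenesis and sugar handling, with none higher and 6 lower without overlap (median -0.10). *Pck1*, the other key enzyme of gluconeogenesis, stood at 13.7 and 30.8 FPKM in WT against 6.31 and 6.46 in knockout and did not pass (-1.55 ± 0.42, adjusted p = 0.152). No gene was called among 23 of fatty acid oxidation, of which 9 lay lower and none higher without overlap (median -0.28). *Cyp39a1* was the called gene among 32 cytochrome P450s, esterases and retinoid enzymes, where, beside 1 gene that passed the filter only through WT, 11 lay lower and 2 higher without overlap (median -0.24). None of 20 brush border hydrolases and peptidases was called, and 18 of them overlapped between groups.

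Immediate early genes, which signalling and cell stress switch on within minutes, held 3 of the genes that fell. *Fosb*, a subunit of the AP-1 transcription factor, stood at 88 and 76.5 FPKM in WT against 31.5 and 14.1 in knockout (-1.91 ± 0.32, adjusted p = 0.0464). *Zfp36*, the tristetraprolin that promotes decay of AU-rich messages, went from 179 and 151 to 69.5 and 51.1 FPKM (-1.45 ± 0.22, adjusted p = 0.0344). *Nfkbia*, the inhibitor of NF-kB, went from 85.6 and 90.1 to 43.1 and 35.7 FPKM (-1.14 ± 0.19, adjusted p = 0.044). In all 3 the groups were clearly apart. Of 26 tested genes of the list these 3 were called, and 18 lay lower and 1 higher without overlap (median -0.79). The shares over all genes tested were 24.8% lower and 28.7% higher. *Fos* (626 and 497 FPKM in WT, then 260 and 153) and *Jun* (363 and 298, then 171 and 114) missed the threshold, with adjusted p of 0.0662 and 0.0763. Outside the list, the stress-induced kinase *Plk3* went from 24.1 and 29 to 10.5 and 7.4 FPKM and *Csrnp1*, a nuclear protein induced by growth signals, from 9.58 and 10.5 to 4.32 and 3.38. Enzymatic digestion of tissue induces many of these genes, so they also depend on how cells were handled before lysis, and the part of handling in this difference was not tested.

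*Nr1d1*, the clock repressor REV-ERB alpha, stood at 39.4 and 43.3 FPKM in WT against 11.5 and 14.4 in knockout (-1.61 ± 0.22, adjusted p = 0.0281). It overlaps *Thra* on the opposite strand. The remaining 12 tested clock genes were not called, and clock genes vary with the hour of collection, which the labels do not give. *Per1* stood at 10.7 and 11.3 FPKM in WT against 5.09 and 3.37 in knockout (adjusted p = 0.13), and *Cry1* at 2.28 and 1.93 in WT against 4.5 and 4.95 in knockout (adjusted p = 0.13). Of 45 tested genes with a Hist symbol, counted after the values were seen, 4 were called, all lower. Without overlap, 41 lay lower and none higher (median -0.73), where 24.8% and 28.7% of all genes tested did so. The 4 called were *Hist1h2bc* (57.6 and 60.4 FPKM to 18.4 and 28.1), *Hist1h2bg* (14.7 and 14.8 to 4.75 and 6.1), *Hist1h4m* (3.6 and 5.45 to 1.05 and 0.583) and *Hist3h2a* (5.15 and 4.73 to 1.05 and 1.75). The last 2 were below the level the naming rule asks for and were chosen after their values were seen. Histone genes have close copies, so their values are uncertain. *Tcea3*, a transcription elongation factor, went from 27.5 and 25.1 to 10.5 and 10.1 FPKM.

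No stem cell or cell cycle gene was called. *Ascl2*, a transcription factor of stem cells, stood at 9.4 and 7.91 FPKM in WT against 9.96 and 5.31 in knockout (-0.21 ± 0.32, adjusted p = 0.852). *Olfm4* stood at 538 and 484 FPKM in WT against 562 and 337 in knockout (-0.23 ± 0.62, adjusted p = 0.935). *Mki67*, a marker of dividing cells, stood at 27 and 33.2 FPKM in WT against 39.3 and 22.4 in knockout (-0.01 ± 0.34, adjusted p = 0.996), and *Myc* at 16.3 and 8.92 in WT against 16.6 and 12.6 in knockout (adjusted p = 0.821). All 4 overlapped between groups. Of 22 stem cell markers, beside 1 that passed the filter only through knockout, 6 lay higher and 4 lower without overlap (median 0.12). Of 31 cell cycle genes, 3 lay higher and 7 lower (median -0.08). Over all genes tested 28.7% lay higher and 24.8% lower, and neither list exceeded these shares. *Cd44*, a surface receptor and Wnt target, was nearest to a call, with 3.68 FPKM in both WT libraries and 11.6 and 9.69 in knockout (adjusted p = 0.0501). *Rnf43*, a Wnt antagonist, stood at 11.6 and 11.1 FPKM in WT against 5.98 and 3.64 in knockout (adjusted p = 0.142).

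None of the listed markers of secretory cells was called, and most lay above WT in both knockout libraries. *Reg4*, which was called, is in none of these lists. All 17 enteroendocrine markers tested did so (median 1.17), among them the hormone genes *Gcg* (47.8 and 34.5 FPKM in WT, 109 and 189 in knockout, adjusted p = 0.2) and *Sst* (96.7 and 55.4, then 147 and 266, adjusted p = 0.179). The same held for 9 of 10 goblet markers (median 0.96), where *Agr2*, a disulfide isomerase needed to make mucin, stood at 251 and 277 FPKM in WT against 505 and 1136 in knockout (adjusted p = 0.167). It also held for 10 of 16 Paneth markers (median 0.46) and 6 of 10 tuft markers (median 0.63). In the Lgr5-high gate the enteroendocrine median was 2.87, with 6 genes called, and the goblet median 1.58, with 2 called. The Paneth median there was 0.51, with 0 called, and the tuft median 1.71, with 1 called. Of 12 genes of Notch signalling and secretory choice none was called, 4 lay higher, 2 lower and 6 overlapped (median 0.32), a share of higher genes near the 28.7% of all genes tested. *Atoh1*, the factor that commits cells to secretory fates, stood at 14.4 and 10.2 FPKM in WT against 24.7 and 31 in knockout (adjusted p = 0.211). Knockout library 2 held the higher sum in the enteroendocrine list (2558 against 1501 FPKM, with 843 and 557 in WT) and the goblet list (12841 against 8166 FPKM, with 6028 and 5456 in WT).

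Of 9 tested fetal-like and YAP target genes none was called. *Ly6a*, the Sca-1 antigen, which interferon also induces and which marks regenerating epithelium, stood at 1.41 and 1.6 FPKM in WT against 11.5 and 48.5 in knockout (3.31 ± 0.69, adjusted p = 0.0826). Among 19 tested genes of the m6A machinery none was called, 11 lay higher and 3 lower without overlap and the median was 0.32. The shares over all genes tested were 28.7% higher and 24.8% lower, and the lower genes here did not exceed theirs. The reader *Ythdf2*, which directs methylated messages to decay, stood at 11 and 10.7 FPKM in WT against 19.9 and 17.7 in knockout (adjusted p = 0.117). Among 18 cell death genes none was called (median 0.32), and the necroptosis effector *Mlkl* stood at 5.69 and 4.65 FPKM in WT against 8.5 and 13.6 in knockout (adjusted p = 0.249). Of 25 immune cell markers, 7 were tested and none was called (median 0.06). Their sum over the list was 30.8 and 16.5 FPKM in WT against 14 and 49.8 in knockout. Of 19 markers of stroma, muscle and endothelium, *Vim* alone was tested, at 3.71 and 3.92 FPKM in WT against 10.5 and 21.7 in knockout (adjusted p = 0.214). *Actg2* was listed at 0 in all 4 libraries. None of 9 pan-epithelial genes was called (median -0.13).

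Most changes of the Lgr5-low gate had a counterpart in the Lgr5-high gate. There, 99 genes (0.827%) were higher and 38 (0.317%) lower in knockout at day 4, over the same 11971 genes. Both gates shared 38 genes that were higher, 80.9% of those called in Lgr5-low and 38.4% of those called in Lgr5-high, and 13 that were lower (41.9% and 34.2%). All 47 and all 31 genes called in Lgr5-low went the same way without overlap in Lgr5-high, where 24.8% of all genes tested lay above WT and 21.8% below it without overlap. The gates may come from the same animals, which the labels do not say. The Lgr5-low calls also used a spread shared with the Lgr5-high libraries, so the non-overlap there is not independent of the calls.

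The difference between the gates was tested directly, as the knockout change in Lgr5-low minus that in Lgr5-high. The libraries of the gates were taken as unpaired, which the labels do not settle, and a pairing of the gates would change the spread used here. No gene was called (limma, smallest adjusted p = 0.886), and 191 had an unadjusted p under 0.05. Among the 78 genes called in Lgr5-low the difference lay between -1.17 and 1.07, with a median SE of 0.31, and 9 had an unadjusted p under 0.05. *Mt2* was at one end: it stood at 13.9 and 10.6 FPKM in WT Lgr5-high and 177 and 119 in knockout Lgr5-high, a log2 change of 3.48 against 2.30 in Lgr5-low. *Ifit1bl1* was at the other, with 1.32 and 0.758 FPKM in WT Lgr5-high and 4.59 and 8.94 in knockout, a change of 1.88 against 2.96. *Cbr3* changed by 2.78 in Lgr5-high and 3.71 in Lgr5-low (unadjusted p of the difference 0.0245), and *Ephx1* by 0.73 and 1.43 (unadjusted p 0.0319). The adjusted p of the difference lay between 0.955 and 1 over the 78 genes. *Fbp1* stood at 18.4 and 20.5 FPKM in WT Lgr5-high and 9.09 and 7.87 in knockout and was not called there (-1.11, adjusted p = 0.112). A gene called in one gate and missing the threshold in the other is thus not shown to differ between them.

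**Figure D4:**
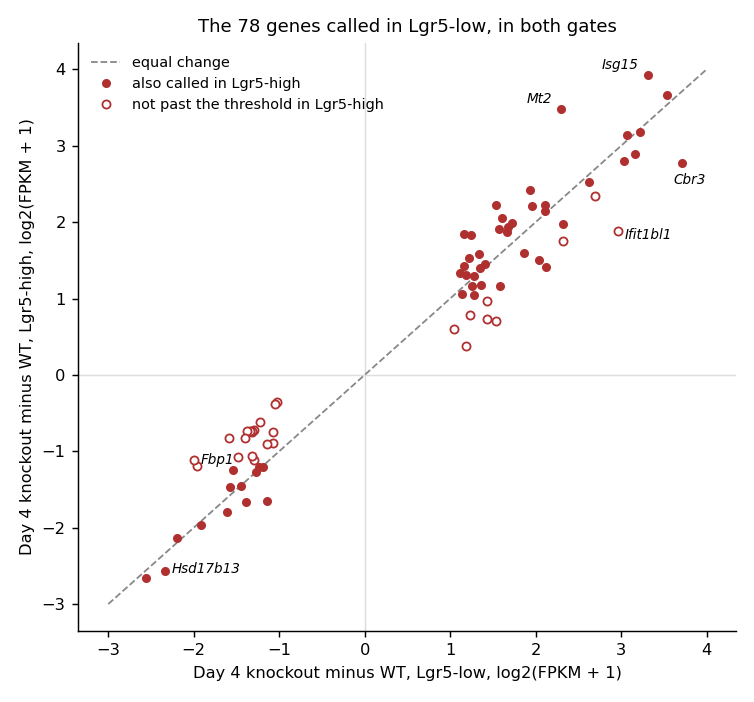
Log2 change in day 4 knockout in Lgr5-low cells (x axis) and in Lgr5-high cells (y axis) of the 78 genes called in Lgr5-low, with filled points for those also called in Lgr5-high and a dashed line of equal change. All points lie in the lower left or upper right corner of the plot, and *Mt2* and *Ifit1bl1* lie farthest from the line.

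The single day 3 library of the Lgr5-low gate and the 2 day 6 libraries are given side by side with day 4, without a test. All are set against the same WT libraries, so their changes are not independent, and day 6 has no stated gate. *Phlda3* stood at 7.35 FPKM at day 3, above both WT libraries and below both at day 4, and at 39.6 and 33 at day 6. *Cbr3* stood at 5.51 FPKM at day 3 and 51.4 and 79.2 at day 6. *Acta1* stood at 16.8 FPKM at day 3, slightly above both day 4 libraries, and at 10.4 and 9.55 at day 6. *Mt2* stood at 61.6 FPKM at day 3 and 93.7 and 128 at day 6. These 4 genes were thus all above WT in the day 3 library.

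The interferon genes stood closer to WT at day 3. *Igtp* was at 8.16 FPKM, *Irgm2* at 3.31, *Tgtp2* at 1.51 and *Isg15* at 8.41, against WT values of up to 6.09, 2.69, 0.878 and 7.02 FPKM, so each lay slightly above both WT libraries. At day 6 the 2 sets stood at different levels. *Isg15* was at 131 and 206 FPKM and *Ifit1bl1* at 81.6 and 128, above both day 4 libraries of the low gate. *Igtp* was at 11.3 and 25.2 FPKM and *Tgtp2* at 0.835 and 4.31, below both of them, whereas *Irgm1* (23.7 and 43.7 FPKM) overlapped with day 4. Of the genes that fell, *Hsd17b13* stood at 6.3 FPKM at day 3 and 1.51 and 2.68 at day 6, *Edn2* at 11.4 and then 1.1 and 1.18, and *Fosb* at 57.7 and then 10.7 and 12.9. All 3 were below both WT libraries at each day.

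**Figure D5:**
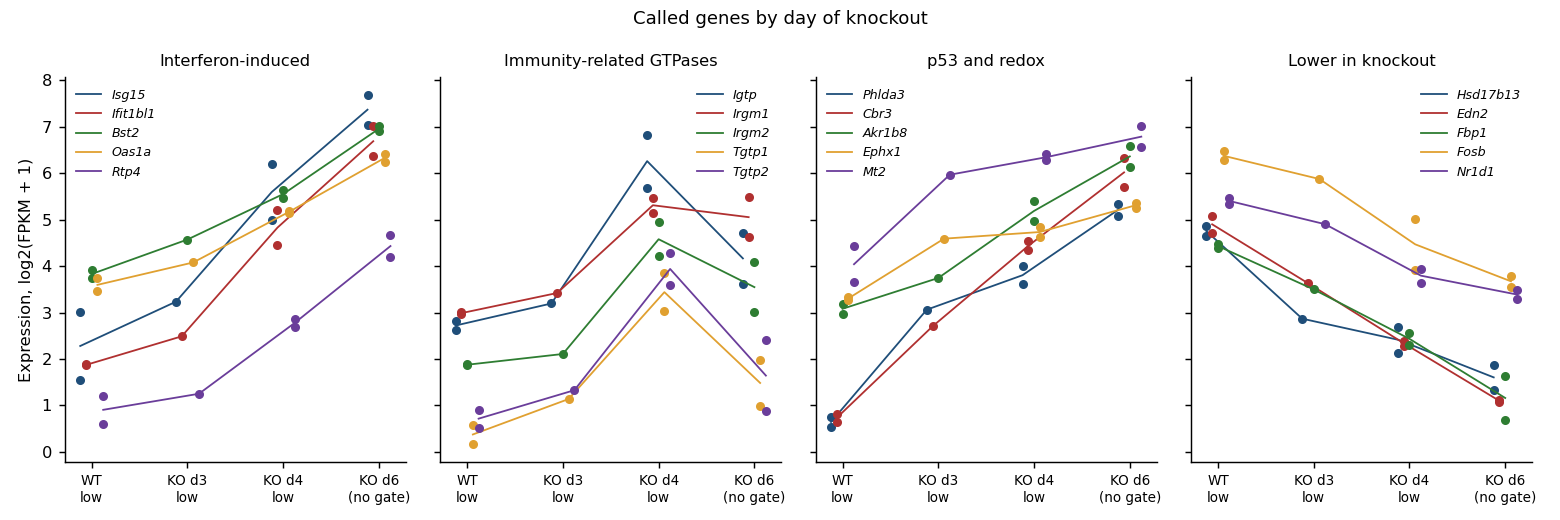
Expression as log2(FPKM + 1) of 20 called genes in WT Lgr5-low (2 libraries), knockout Lgr5-low at day 3 (1 library) and day 4 (2 libraries) and knockout at day 6 (2 libraries, no gate given), with points for libraries and lines through the group means. By group mean the GTPases are highest at day 4, the other interferon-induced genes at day 6, and the genes in the last panel fall at each step.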

How the data were processed

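RNA-seq libraries of sorted cells were analysed from the deposited FPKM values per gene, 1 file per library, in the unit given per the file headers. The submitters' processing notes name StringTie 1.3.3b, HISAT2 2.1.0 and, as the build, mm10, without giving the tools' roles. Of 54838 gene rows, 54809 had a symbol in GENCODE M21 (GRCm38, the same build). Values were analysed as log2(FPKM + 1) without further scaling. limma 3.58.1 (R 4.3.3; lmFit, eBayes with a trend) was fitted with 1 mean per group to 10 libraries of 5 groups, so that groups of 2 libraries shared 1 estimate of the spread, and p-values were adjusted by Benjamini-Hochberg over all genes tested. The fit was tested on simulated data. Lists carry no test and are described by counts and medians.

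Named were up to 25 rises and 25 falls, the largest among called genes without overlap and with a mean of at least 5 FPKM in either group (no predicted genes), the called or the 3 lowest-p members of each list, and a few fixed genes. The members and lists were chosen with earlier results of these data known. A few genes meeting the rule are not reported here. Where another gene is named, it was chosen after its values were seen. Promoter windows are from RefSeq (GRCm38.p6), matched by symbol for 8554 tested genes. Strand is not given in the sources used here. The alternatives were other pseudocounts, filters, scalings and fits, a replicate block, and leaving out each library.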

Additional observations from a re-analysis of the deposited data

How the results depend on the processing

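The counts of called genes depended on the processing far more than the directions did. Against 47 higher and 31 lower, the counts were 1 and 0 when the fit held the compared groups alone, 30 and 6 with a pseudocount of 0.1, 36 and 39 with a pseudocount of 5, 14 and 7 with no filter, 42 and 15 with a filter at 5 FPKM, 4 and 2 with equal FPKM sums, 96 and 80 after quantile normalization, and 150 and 135 with a trend on gene length taken out. Leaving out 1 library gave 3 higher each time and between 0 and 3 lower, where the lone library is assumed to vary like the other groups. The fits with only the compared groups or with a library left out also held fewer samples. What made the counts differ was not tested. The test between gates, with no calls, gave 1 with only the compared groups (*Sept2*), 7 with no filter, 2 with a filter over all 10 libraries, and between 0 and 1 when 1 library was left out (*Phgr1*, without knockout library 1).

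The replicate block, with replicate number as a term, gave 76 higher and 51 lower, and 74 and 45 with only the compared groups. The labels do not say what the number stands for. The deviations of replicate 1 in WT and knockout Lgr5-low correlated at 0.2172 across genes. Between the gates they correlated at 0.4584 in WT and at 0.3553 in day 4 knockout. Over all pairs of groups the range was 0.007343 to 0.5433, the highest between day 4 knockout Lgr5-high and day 6. The libraries were treated as unpaired, and whether the numbers pair the gates was not tested.

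Across 17 alternatives, 44 called genes that are named gave 747 values: 418 stayed called, 329 kept their direction without passing, and 0 reversed. Of 1196 values for 71 named genes that were not called, 34 passed the threshold and 7 reversed: without knockout library 2, *Cdhr5*, *Gzmb*, *Ascl2*, *Olfm4* and *Mki67*, and without WT library 2, *Mki67* and *Myc*. With 1 library left out at a time, the log2 difference ran from -0.03 to 0.88 for *Cdhr5*, -0.16 to 1.60 for *Gzmb*, -0.61 to 0.19 for *Ascl2*, -0.60 to 0.14 for *Olfm4*, -0.40 to 0.38 for *Mki67* and -0.16 to 0.64 for *Myc*.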

Other observations

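*Pla2g2a*, a secreted phospholipase of Paneth cells, is annotated as a polymorphic pseudogene, which means that it is intact in some strains only. It stood at 2349 and 1968 FPKM in WT Lgr5-low, 3346 in knockout library 1 and 107 in knockout library 2. All mice are labelled C57BL/6, and the part of genetic background in these values was not tested. The day 3 library held 2167 FPKM. In the Lgr5-high gate the values were 2477 and 1482 FPKM in WT, 4723 in knockout library 1 and 87.9 in knockout library 2, and the day 6 libraries held 371 and 109 FPKM. Both libraries numbered 2 of the day 4 knockout were thus low in this gene, while Paneth cell markers summed to 91102 and 93649 FPKM in the 2 day 4 Lgr5-low knockout libraries. The gene was not called in the Lgr5-low gate (-1.84 ± 1.88, limma adjusted p = 0.742) and was chosen after its values were seen.

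The heat shock genes *Hspa1a* and *Hspa1b* separated the knockout libraries in the other direction. *Hspa1a* stood at 35 and 41.4 FPKM in WT, 5.47 in knockout library 1 and 38 in knockout library 2, and *Hspa1b* at 70.3, 71.1, 10.4 and 75.3 FPKM in the same order. Both were chosen after their values were seen and neither was called.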
